A study of Mus musculus with 47 samples.

Results

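Uninvolved intestinal mucosa of C57BL/6 (B6) mice with the Apc Min allele was compared with intestinal mucosa of wild-type B6 mice by RNA sequencing. The members are the 6 libraries that the labels place in these groups, 3 of B6 Min mucosa and 3 of B6 wild-type mucosa, out of 47 libraries in the series. Both groups came from mice aged 15 to 19 weeks, both were labelled as normal intestinal mucosa, and neither carried PWD/Ph chromosomes or received a drug. The Min mice also developed adenomas, which formed separate samples. The labels give neither the segment of gut, the sex nor the number of mice behind a library, and they do not say that replicates came from separate animals. The p-values below therefore rest on the spread between libraries and not on a known number of animals. That spread was estimated within the groups of all 39 tissue libraries of the series, other backgrounds and adenomas included. Comparisons with other backgrounds used Min and wild-type mucosa, 3 libraries each, of the strain with PWD/Ph chromosome 5 on C57BL/6 (C5), of its cross with B6 (C5F1) and of the cross of B6 with PWD (B6xPWD).

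Apc is a scaffold of the complex that marks beta-catenin for destruction, and its loss switches on Wnt target genes. Min is a point mutation that truncates the protein, so carriers start with 1 working copy and form adenomas in the small intestine where that copy is lost. The mucosa between adenomas still renews itself from crypts, and it changes along the gut: the proximal part expresses the transcription factor Gata4 and absorbs most of the fat, while the distal ileum takes back bile acids with the help of Fabp6, a cytosolic bile acid-binding protein.

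Counts assigned to genes were 5831947, 5054765 and 5530977 in the 3 Min libraries and 4395759, 4153823 and 2834220 in the 3 wild-type libraries. The ribosomal precursor Rn45s took 27.6, 24.3 and 44.2% of them in Min mucosa and 23.4, 16.4 and 61.0% in wild-type mucosa, so wild type 3 was the thinnest library. Xist had at most 2 counts and genes of the Y chromosome had 162 to 582 counts in every library, the pattern of male tissue. Brush border genes were abundant throughout, with a summed level of 12796 to 13626 CPM (a gene's counts relative to the normalised total of its library) in Min mucosa and 13183 to 25794 CPM in wild-type mucosa, and 7 of 8 genes of the pancreas were at 0 in all 6 libraries.

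Apc itself was at 176, 179 and 146 CPM in Min mucosa and at 141, 134 and 163 CPM in wild-type mucosa. The groups overlapped, and the fitted log2 change was 0.19 ± 0.19 (SE, adjusted p = 0.706). A point mutation need not alter the level of its transcript, so this value does not check the genotype.

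The gut position markers set the wild-type libraries apart from each other. Fabp6 was at 2821, 1747 and 1930 CPM in Min mucosa, against 1602, 281 and 36.9 CPM in wild-type mucosa. Gata4 was at 0, 0.137 and 0.875 CPM in Min mucosa (0, 1 and 5 counts), against 1.21, 64.1 and 78.3 CPM in wild-type mucosa (8, 401 and 138 counts). All 3 Min libraries and wild type 1 thus had a distal pattern of high Fabp6 and almost no Gata4, and wild types 2 and 3 had a proximal one. Neither gene passed the test, with log2 changes of 1.75 ± 1.24 for Fabp6 (adjusted p = 0.581) and -7.22 ± 1.95 for Gata4 (adjusted p = 0.0846). Group and gut position therefore differ together in these 6 libraries, and only wild type 1 matches the Min libraries in position. Values per library are given below for many of the named genes. For some genes and lists, differences are also given against wild type 1 alone or against wild types 2 and 3. These are differences of mean log2 CPM with no test.

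**Figure D1:**
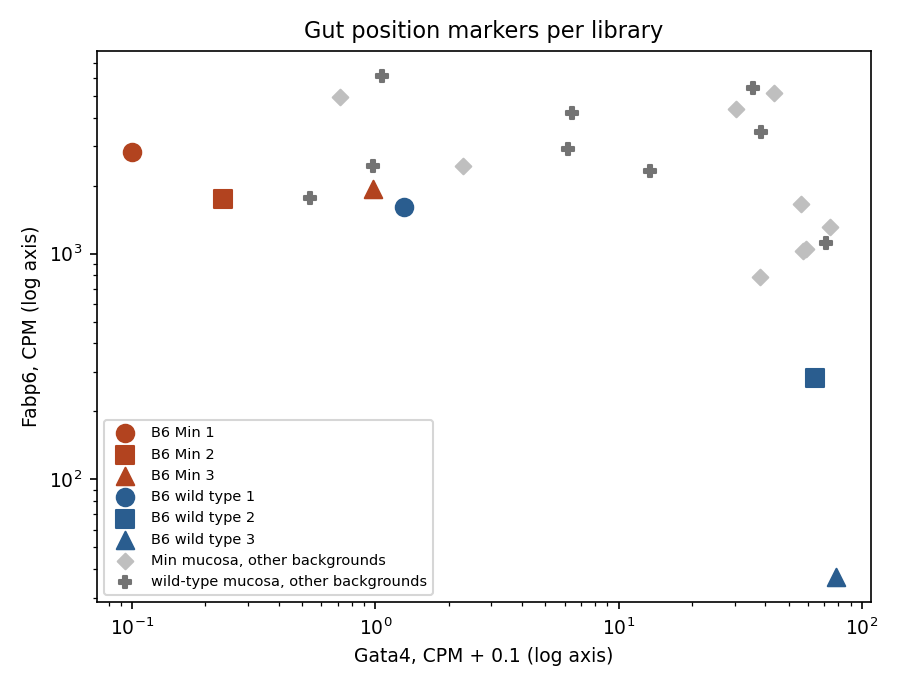
Fabp6 (vertical axis, CPM, log scale) against Gata4 (horizontal axis, CPM plus 0.1, log scale), 1 point per mucosa library, with B6 Min in red and B6 wild type in blue. The 3 Min libraries and wild type 1 lie at the upper left (Fabp6 of 1602 CPM or more, Gata4 of 1.21 CPM or less), and wild types 2 and 3 lie at the lower right. Grey points are Min and wild-type mucosa of the other backgrounds.

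Across 13657 genes tested, 71 passed an adjusted p of 0.05 (0.52% of genes tested), of which 34 were higher (0.249%) and 37 lower (0.271%) in B6 Min mucosa, and 1817 genes had an unadjusted p under 0.05. With only the compared libraries in the fit, 3 genes were called. The median log2 change of all genes was 0.01, 51.7% of all changes were positive, and 64 of the 71 changed by more than 2-fold. Counts of list members below are to be set beside these shares. The 2 groups did not overlap for 34 of the 34 higher genes and 36 of the 37 lower genes, against 14.7% of all genes tested. These same libraries chose the 71 genes, so that contrast follows largely from the choice and adds no support. The count changed when single libraries were left out: 0 genes were called without Min 1 (1552 at an unadjusted p under 0.05) or without wild type 2 (1103), 15 without Min 2, 15 without wild type 3, 53 without Min 3 and 218 without wild type 1. With a covariate for gut position (mean log2 CPM of the distal ileum genes minus that of the proximal genes, circular for those genes themselves) 15 genes were called, 9 higher and 6 lower, all 15 among the 71. Reads from overlapping genes cannot be assigned with certainty where the strand setting is not given, and 19 of the 71 genes overlap another annotated gene, among them Alas2 (Apex2), Slc16a3 (Csnk1d), Rtp4 (Masp1) and the pair Slc30a10 and Gm2061.

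The higher and the lower genes stood differently toward wild type 1. The higher genes had a median difference of 1.47 against wild type 1 and 1.74 against wild types 2 and 3, and 29 of 34 differed by more than 1 against wild type 1. The lower genes had a median difference of -0.84 against wild type 1 and -1.88 against wild types 2 and 3, and 13 of 37 differed by more than 1 against wild type 1. Wild type 1 lay nearer to the Min mean than to the mean of wild types 2 and 3 for 2 of the 34 higher genes and for 19 of the 37 lower genes.

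**Figure D2:**
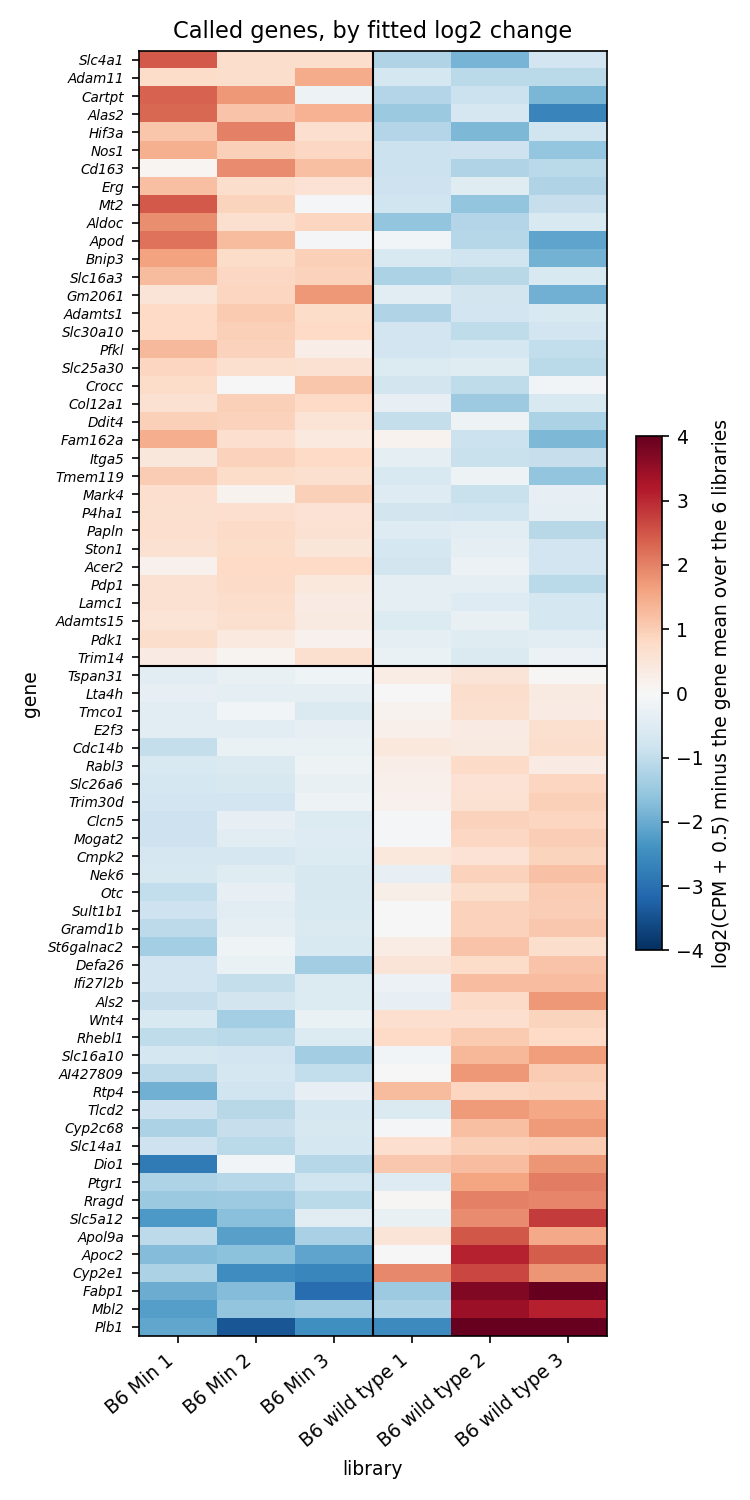
The 71 called genes (rows, by fitted log2 change) in the 6 libraries (columns, Min at left), as log2(CPM + 0.5) minus the gene's mean over the libraries, in red above and blue below that mean. Wild type 1 is blue or near white with the other wild-type libraries in the upper block of 34 genes, and is also near white or blue for many genes of the lower block of 37, at the bottom Plb1, Mbl2 and Fabp1.

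**Figure D3:**
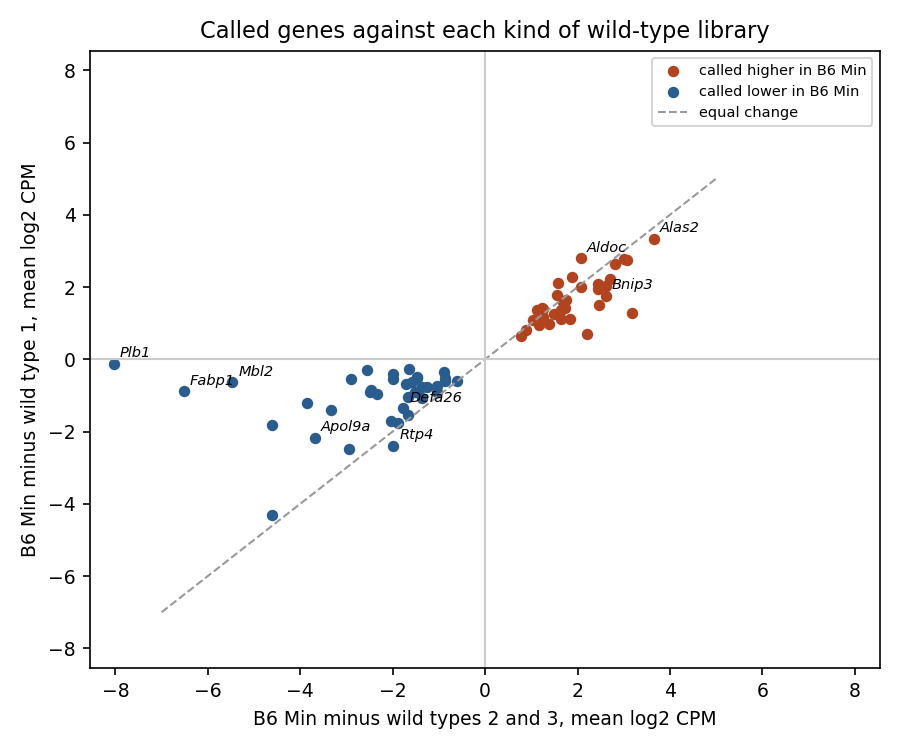
Mean log2 CPM of the 3 Min libraries minus that of wild type 1 (vertical axis) against the same minus wild types 2 and 3 (horizontal axis), 1 point per called gene. Higher genes (red) lie near the dashed line of equal change, with medians of 1.47 and 1.74, while many lower genes (blue) lie far to the left and close to 0 on the vertical axis, with medians of -0.84 and -1.88.

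Genes of the response to low oxygen were higher in Min mucosa. Of 15 such genes, targets of the hypoxia-inducible factors, 3 rose (Bnip3, P4ha1 and Pdk1), none fell and 12 were not called. Of all genes tested 0.249% were called higher. The fitted log2 change was positive for 15 of 15 on the list, against 51.7% of all genes. At an unadjusted p under 0.05 were 10 of the 15, all higher, against 1817 of 13657 genes in either direction. The list's median was 0.89, against 0.01 over all genes. The median was 0.82 against wild type 1 alone and 1.19 against wild types 2 and 3. In bulk tissue a change in the number of cells that express a gene and a change in its level per cell cannot be told apart.

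Bnip3, a mitochondrial protein that promotes removal of mitochondria, was at 11.4, 6.02 and 7.17 CPM in Min mucosa, against 2.11, 1.76 and 0.567 CPM in wild-type mucosa. Every Min library was above every wild-type library. The change was 2.26 ± 0.46 on the log2 scale (4.80-fold, adjusted p = 0.0216), and 1.76 against wild type 1 alone.

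P4ha1, a subunit of the collagen prolyl hydroxylase, was at 20.1, 20.9 and 19.6 CPM in Min mucosa, against 7.54, 7.20 and 9.64 CPM in wild-type mucosa. The values within each group were close together and the groups were apart. The change was 1.36 ± 0.29 (2.56-fold, adjusted p = 0.0291), and 1.39 against wild type 1 alone.

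Pdk1, a kinase that inhibits pyruvate dehydrogenase, was at 66.6, 53.8 and 45.8 CPM in Min mucosa, against 30.9, 28.8 and 30.1 CPM in wild-type mucosa. Here too each Min library exceeded each wild-type library. The change was 0.89 ± 0.21 (1.85-fold, adjusted p = 0.0428), and 0.82 against wild type 1.

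The members that missed the threshold had positive fitted changes. Ankrd37, Egln3, Slc2a1 and Vegfa, named after their values were seen, had changes of 1.52 ± 0.43, 1.30 ± 0.36, 1.11 ± 0.32 and 1.06 ± 0.30, with adjusted p from 0.0983 to 0.103. Vegfa, the growth factor of blood vessels, was at 70.8, 57.0 and 70.1 CPM in Min mucosa, against 34.4, 35.4 and 23.8 CPM in wild-type mucosa, without overlap. Ldha, lactate dehydrogenase, had a change of 0.36 ± 0.19 (adjusted p = 0.432).

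Several other called genes belong to sugar metabolism or the stress of low oxygen and stand outside that list, and apart from Hif3a, Aldoc and Slc16a3 they were picked after their values were seen. Hif3a, a member of the hypoxia-inducible factor family, was at 5.66, 11.1 and 4.02 CPM in Min mucosa, against 0.754, 0.320 and 1.13 CPM in wild-type mucosa (3.42 ± 0.66, 10.7-fold, adjusted p = 0.0158). Aldoc, a glycolytic aldolase, was at 24.3, 10.1 and 12.1 CPM in Min mucosa, against 1.81, 2.56 and 3.97 CPM in wild-type mucosa (2.63 ± 0.45, 6.19-fold, adjusted p = 0.00794). In both genes the lowest Min library was above the highest wild-type library, with Min 2 highest for Hif3a and Min 1 highest for Aldoc.

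Slc16a3, the lactate exporter MCT4, was at 131, 96.5 and 104 CPM in Min mucosa, against 22.2, 24.8 and 35.7 CPM in wild-type mucosa (2.04 ± 0.47, 4.12-fold, adjusted p = 0.0416). Pfkl, the liver-type phosphofructokinase of glycolysis, was at 138, 107 and 68.4 CPM in Min mucosa, against 32.9, 34.2 and 28.4 CPM in wild-type mucosa (1.70 ± 0.30, 3.26-fold, adjusted p = 0.00794). Ddit4, an inhibitor of the growth kinase mTORC1 induced by stress, was at 69.8, 69.6 and 53.5 CPM in Min mucosa, against 18.3, 31.0 and 14.7 CPM in wild-type mucosa (1.55 ± 0.30, 2.93-fold, adjusted p = 0.0158). The groups did not overlap for any of these 3 genes, and against wild type 1 alone the differences were 2.29, 1.60 and 1.79. Fam162a, a mitochondrial protein induced by hypoxia, rose 2.79-fold (adjusted p = 0.0416). Its log2 difference was 0.71 against wild type 1 and 2.21 against wild types 2 and 3, with Min 3 at 28.2 CPM and wild type 1 at 23.4 CPM. Pdp1, the phosphatase that counters Pdk1, rose 2.27-fold (adjusted p = 0.0370), with log2 differences of 0.98 against wild type 1 and 1.37 against wild types 2 and 3.

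With the covariate for gut position, Bnip3 (2.32), Pdk1 (1.02), Ddit4 (1.66), Pfkl (1.88), Slc16a3 (2.64) and Aldoc (2.95) were among the 15 genes still called. P4ha1 (1.36, adjusted p = 0.0685), Hif3a (2.96, adjusted p = 0.0660), Fam162a (1.42, adjusted p = 0.0944) and Pdp1 (0.94, adjusted p = 0.124) were not.

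**Figure D4:**
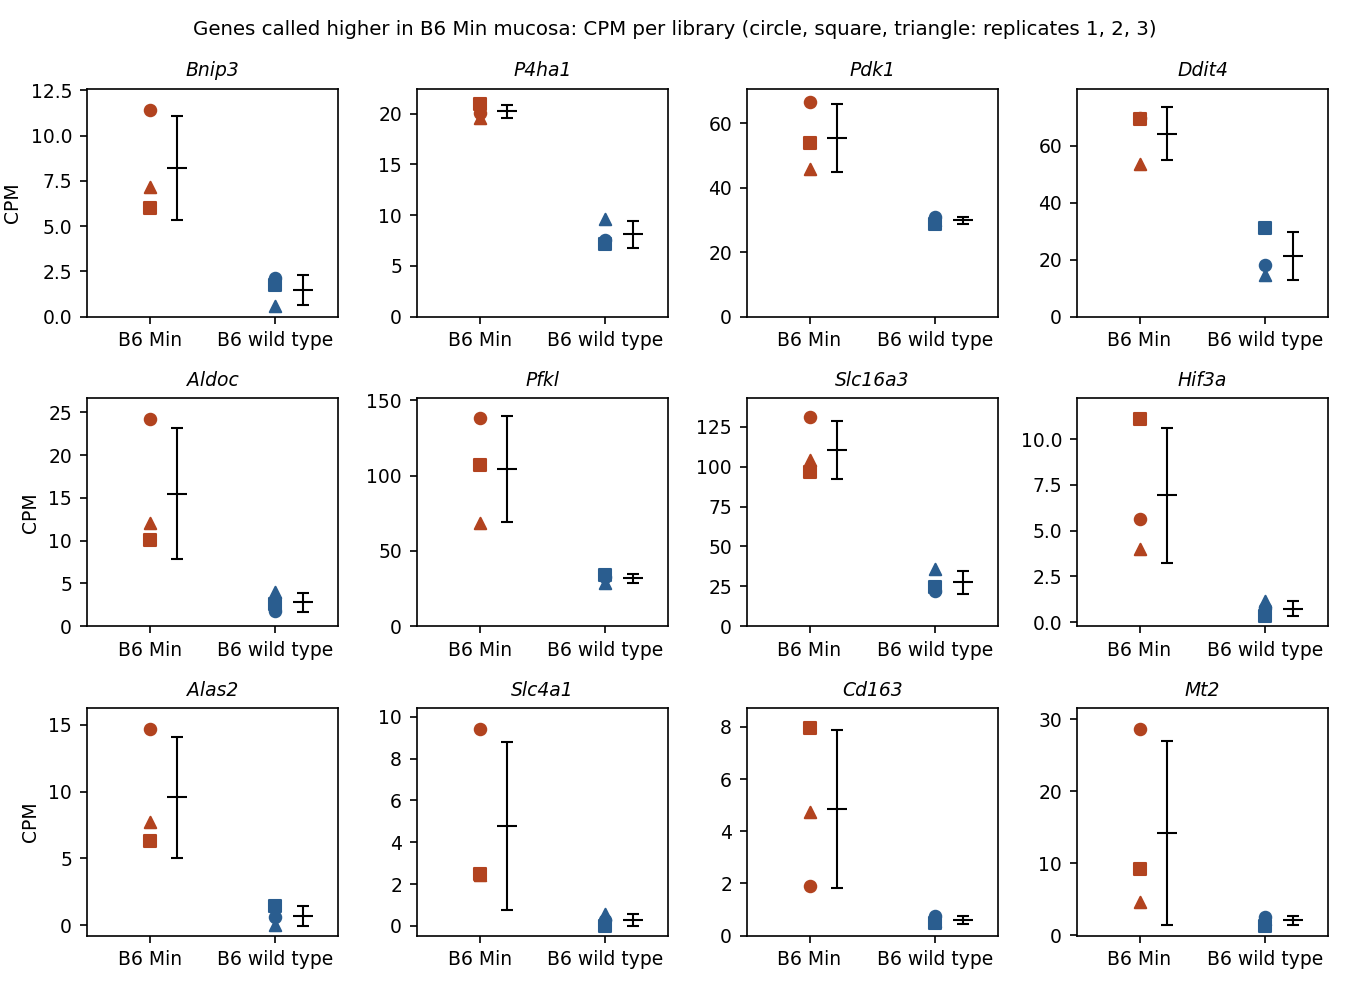
CPM per library (circle, square and triangle for replicates 1, 2 and 3) of 12 genes called higher in B6 Min mucosa (red, left) than in B6 wild-type mucosa (blue, right), with the mean and SD of the 3 libraries beside the points. In every panel the lowest Min library is above the highest wild-type library, for Slc16a3 at 96.5 against 35.7 CPM.

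Promoters of the hypoxia genes are shown because 3 genes of that list rose and the bound motif of the hypoxia-inducible factors is short and well known. The core letters ACGTG and GCGTG were searched on both strands (also as CACGT and CACGC), and overlapping matches were counted apart. In RefSeq windows of 300 bases around the first listed start of each gene (GRCm38.p6, the assembly of mm10), 43.8% of 27025 genes held a match. Among called genes with such a window, 16 of 24 higher genes and 11 of 27 lower genes held a match, and so did 13 of the 14 hypoxia genes. The hypoxia genes were listed as targets of these factors, so their share follows largely from how the list was made. Bnip3, P4ha1 and Pdk1 count in both that list and the higher genes, and the shares were not tested. A match is a stretch of letters and not a measured binding site. The 150 bases from -220 to -71 relative to the start follow for 4 called genes, read 5′ to 3′ on the gene's strand, with matches in capitals. They lie at chr10:59323076-59323225 (plus strand) for P4ha1, chr7:138909577-138909726 (minus strand) for Bnip3, chr2:71873004-71873153 (plus strand) for Pdk1 and chr10:59951841-59951990 (minus strand) for Ddit4.
P4ha1: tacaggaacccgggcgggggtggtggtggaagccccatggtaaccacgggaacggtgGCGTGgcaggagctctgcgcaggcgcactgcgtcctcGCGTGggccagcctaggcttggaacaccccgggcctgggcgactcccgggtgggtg
Bnip3: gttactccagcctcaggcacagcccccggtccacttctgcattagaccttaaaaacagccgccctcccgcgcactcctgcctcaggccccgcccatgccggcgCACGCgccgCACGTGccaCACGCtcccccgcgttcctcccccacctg
Pdk1: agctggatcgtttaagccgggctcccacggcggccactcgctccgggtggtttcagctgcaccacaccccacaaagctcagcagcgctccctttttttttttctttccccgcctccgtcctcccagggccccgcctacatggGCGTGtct
Ddit4: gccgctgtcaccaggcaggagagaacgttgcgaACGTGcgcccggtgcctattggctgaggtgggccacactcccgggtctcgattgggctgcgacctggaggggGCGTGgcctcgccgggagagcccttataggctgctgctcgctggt
Bnip3 held 4 matches in this stretch, of which a pair overlaps in the palindrome CACGTG, P4ha1 and Ddit4 held 2 each and Pdk1 held 1.

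The only testable gene of 6 on the erythroid list rose in Min mucosa, and the other 5 were at 0 in all 6 libraries. It was Alas2, the enzyme of haem synthesis in red cell precursors, at 14.7, 6.30 and 7.70 CPM in Min mucosa, against 0.604, 1.44 and 0 CPM in wild-type mucosa. These were 117, 46 and 44 counts in Min mucosa, against 4, 9 and 0 counts in wild-type mucosa, with no overlap. The change was 3.46 ± 0.64 (11.0-fold, adjusted p = 0.0110), it was 3.34 against wild type 1 alone, and Alas2 remained called with the position covariate (3.41).

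Slc4a1, the anion exchanger of the red cell membrane, had 75, 18 and 14 counts in Min mucosa, against 2, 0 and 1 in wild-type mucosa, a ratio of 24.9 with a 95% counting interval of 8.29 to 123 (adjusted p = 0.0370). Cd163, the haemoglobin scavenger receptor of macrophages, was at 1.89, 7.94 and 4.72 CPM in Min mucosa, against 0.754, 0.480 and 0.567 CPM in wild-type mucosa (2.94 ± 0.64, 7.69-fold, adjusted p = 0.0305). Min 1 was highest for Slc4a1 and lowest of its group for Cd163. Both genes were named after their values were seen, and the globin genes were listed at 0 in all 6 libraries. Whether those zeros mean absent transcripts or reads that were not counted was not tested. Of 12 myeloid genes none was called by edgeR, with 1 higher and 0 lower at an unadjusted p under 0.05, 9 positive, and a median of 0.23 (0.15 against wild type 1).

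The remaining members of the 10 largest rises have varied roles. Cartpt, a neuropeptide precursor, was at 8.67, 5.48 and 1.05 CPM in Min mucosa, against 0.302, 0.480 and 0 CPM in wild-type mucosa (3.87 ± 0.85, 14.6-fold, adjusted p = 0.0337). Mt2, a metallothionein that binds zinc and copper, was at 28.7, 9.17 and 4.55 CPM in Min mucosa, against 2.57, 1.28 and 2.27 CPM in wild-type mucosa (2.83 ± 0.67, 7.12-fold, adjusted p = 0.0420). Apod, a secreted lipocalin, was at 9.18, 4.66 and 1.57 CPM in Min mucosa, against 1.51, 0.480 and 0 CPM in wild-type mucosa (2.60 ± 0.61, 6.07-fold, adjusted p = 0.0420). In all 3 genes Min 1 was highest and Min 3 lowest of the Min libraries, and the lowest Min value of Apod was barely above wild type 1.

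Slc30a10, a manganese exporter of the enterocyte, was at 32.6, 36.3 and 32.4 CPM in Min mucosa, against 10.6, 8.96 and 10.8 CPM in wild-type mucosa (1.75 ± 0.40, 3.37-fold, adjusted p = 0.0370), named after its values were seen. The overlapping gene Gm2061 was at 8.42, 10.7 and 19.9 CPM in Min mucosa, against 4.07, 3.20 and 1.13 CPM in wild-type mucosa (2.04 ± 0.47, 4.11-fold, adjusted p = 0.0416). Both were higher in each Min library, and without the strand their reads cannot be told apart.

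Genes of matrix and connective tissue were also among the rises. Of 16 matrix remodelling genes 1 rose, against 0.249% of all genes tested, none fell and 15 were not called. The median log2 change was 0.67. At an unadjusted p under 0.05 were 6 higher and 1 lower, against 1817 of 13657 genes in either direction. The member called was Adamts1, a secreted protease of proteoglycans, at 14.1, 17.1 and 13.5 CPM in Min mucosa, against 3.17, 4.48 and 5.10 CPM in wild-type mucosa (1.87 ± 0.41, 3.65-fold, adjusted p = 0.0337). The groups were far apart for this gene. Outside the list, and named after their values were seen, Col12a1 (a fibril-associated collagen, 2.94-fold), Itga5 (the alpha chain of the fibronectin receptor, 2.75-fold), Lamc1 (a laminin chain of basement membranes, 2.13-fold) and Adamts15 (2.06-fold) rose, with adjusted p from 0.0291 to 0.0461.

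Markers of stromal cells moved in the same direction without passing the test. Of 12 fibroblast genes 12 had positive changes, against 51.7% of all genes tested, with a median of 0.62 (0.19 against wild type 1). Their summed level was 635 to 903 CPM in Min mucosa and 454 to 567 CPM in wild-type mucosa. Of 11 smooth muscle genes 11 were positive with a median of 0.84, and their summed level was 1705 to 3213 CPM in Min mucosa and 1254 to 1712 CPM in wild-type mucosa. For Acta2, smooth muscle actin, the change was 0.86 ± 0.59 (adjusted p = 0.563), and for Mylk it was 0.27 ± 0.35 (adjusted p = 0.805). Neither list had a gene at 0 in all 6 libraries, and the part of stromal content in the matrix result was not tested.

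Among the lower genes, those of fat absorption led. Of 22 genes of lipid absorption 3 fell (Apoc2, Mogat2 and Fabp1), against 0.271% of all genes tested, none rose and 19 were not called. At an unadjusted p under 0.05 were 12 lower, against 1817 of 13657 genes in either direction, and the list's median log2 change was -0.83. The median was 0.14 against wild type 1 alone and -1.19 against wild types 2 and 3, so the sign of the list's median turned with the wild-type library used. Proximal genes had the same split: 1 of 13 fell (Fabp1), against 0.271% of all genes tested, and 12 were not called. Their median was -1.92, at 0.13 against wild type 1 and -2.48 against wild types 2 and 3. Of the 13 changes 9 were negative and 4 positive, with 7 lower and 1 higher at an unadjusted p under 0.05.

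Fabp1, a fatty acid-binding protein of the proximal enterocyte, was at 1.63, 2.05 and 0.525 CPM in Min mucosa, against 2.57, 109 and 188 CPM in wild-type mucosa. Wild type 1 was close to the Min libraries and the other wild types were far above. The change was -6.04 ± 1.45 (65.9-fold lower, adjusted p = 0.0448), and -0.88 against wild type 1 alone.

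Plb1, a brush border phospholipase and the largest fall, was at 3.52, 1.10 and 2.62 CPM in Min mucosa, against 2.41, 588 and 741 CPM in wild-type mucosa (-7.50 ± 1.78, adjusted p = 0.0428). It is the called gene whose groups overlapped, since Min 1 and Min 3 exceeded wild type 1, and without wild types 2 and 3 its fitted log2 change was 0.0033. Mbl2, a mannose-binding lectin of innate defence, was at 0, 0.274 and 0.350 CPM in Min mucosa, against 0.453, 24.2 and 19.3 CPM in wild-type mucosa (-6.08 ± 1.41, adjusted p = 0.0420). Wild types 2 and 3 alone were high for both.

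Apoc2, the apolipoprotein that activates lipoprotein lipase, was at 6.41, 6.98 and 4.90 CPM in Min mucosa, against 22.2, 195 and 123 CPM in wild-type mucosa (-4.20 ± 0.82, 18.4-fold lower, adjusted p = 0.0158). Mogat2, which rebuilds diacylglycerol from absorbed fat, was at 86.9, 116 and 108 CPM in Min mucosa, against 147, 271 and 306 CPM in wild-type mucosa (-1.22 ± 0.26, 2.32-fold lower, adjusted p = 0.0291). In both genes wild type 1 lay between the Min libraries and the other wild types, with differences of -1.83 and -0.51 against it alone. Apoc2 remained called with the position covariate, at -2.60.

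Lct and Rbp2, uncalled markers of proximal enterocytes, were low in wild type 1 and high in wild types 2 and 3. Both were named after their values were seen, and not all uncalled proximal genes fell. Lct, the lactase of the brush border, was at 1.76, 0.822 and 0.175 CPM in Min mucosa, against 0.604, 427 and 1312 CPM in wild-type mucosa (adjusted p = 0.0901). Rbp2, the cytosolic retinol-binding protein of the enterocyte, was at 73.4, 63.0 and 37.1 CPM in Min mucosa, against 49.0, 496 and 318 CPM in wild-type mucosa (adjusted p = 0.0976). Wild type 1 was within the range of the Min libraries for both. Of 22 brush border genes none was called by edgeR, with 10 lower and 0 higher at an unadjusted p under 0.05, and the median was -0.56, at 0.17 against wild type 1 and -0.82 against wild types 2 and 3. Its most abundant members were Anpep (-0.48 ± 0.42, adjusted p = 0.678) and Mgam (-0.73 ± 0.31, adjusted p = 0.283).

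Of the distal ileum list none of 10 genes was called, with 1 higher and 0 lower at an unadjusted p under 0.05, and the median was 0.42, at 0.11 against wild type 1. Slc10a2, the bile acid importer of the ileum, was at 210, 170 and 186 CPM in Min mucosa, against 187, 29.3 and 30.6 CPM in wild-type mucosa (1.17 ± 0.99, adjusted p = 0.669). Wild type 1 again lay inside the Min range.

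A smaller set of falls was present against wild type 1 as well. Cyp2e1, a cytochrome P450 that oxidises ethanol and other small molecules, was at 1.63, 0.411 and 0.350 CPM in Min mucosa, against 18.9, 32.5 and 17.0 CPM in wild-type mucosa (-4.75 ± 1.12, 27.0-fold lower, adjusted p = 0.0420), a difference of -4.30 against wild type 1. Dio1, the deiodinase that activates thyroid hormone, was at 1.51, 12.7 and 5.95 CPM in Min mucosa, against 29.4, 33.4 and 48.2 CPM in wild-type mucosa (-2.43 ± 0.44, 5.40-fold lower, adjusted p = 0.0107), a difference of -2.49 against wild type 1. For both genes all 3 wild-type libraries were above all Min libraries, and Dio1 remained called with the position covariate (-2.39).

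For Slc5a12, Rragd and Ptgr1 wild type 1 lay between the Min libraries and the other wild types, nearer to the Min mean. Slc5a12, a sodium-coupled lactate transporter, was at 2.26, 3.70 and 9.62 CPM in Min mucosa, against 10.4, 49.1 and 92.5 CPM in wild-type mucosa (-3.27 ± 0.73, adjusted p = 0.0337). Rragd, a GTPase that signals amino acids to mTORC1, was at 7.54, 7.80 and 10.3 CPM in Min mucosa, against 22.8, 90.4 and 87.3 CPM in wild-type mucosa (-2.95 ± 0.59, adjusted p = 0.0216). Ptgr1, a prostaglandin reductase, was at 9.68, 10.4 and 13.3 CPM in Min mucosa, against 16.1, 71.2 and 98.7 CPM in wild-type mucosa (-2.44 ± 0.53, adjusted p = 0.0313). None of the 3 overlapped between groups, but wild type 1 was the lowest wild-type library for each. In that order, the differences were -1.20, -1.39 and -0.54 against wild type 1, and -3.86, -3.34 and -2.89 against wild types 2 and 3.

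Of 22 genes of xenobiotic metabolism 1 fell, against 0.271% of all genes tested, none rose and 21 were not called, with a median of -0.18. The member called was Sult1b1, a sulfotransferase of phenols and thyroid hormone, at 58.6, 75.4 and 67.9 CPM in Min mucosa, against 104, 195 and 207 CPM in wild-type mucosa (-1.32 ± 0.24, 2.50-fold lower, adjusted p = 0.0109). Otc, the urea cycle enzyme that makes citrulline in the gut, was at 21.0, 34.0 and 26.9 CPM in Min mucosa, against 50.4, 69.7 and 85.6 CPM in wild-type mucosa (-1.32 ± 0.26, adjusted p = 0.0216), named after its values were seen. Wild type 1 was again the lowest of the wild-type libraries for both, above every Min library.

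Interferon response genes had lower values in Min mucosa, also against wild type 1. Of 21 tested, 1 fell (Rtp4), against 0.271% of all genes, none rose and 20 were not called. Negative changes made up 21 of 21, against 51.7% positive over all genes. At an unadjusted p under 0.05 were 11 of the 21, all lower, against 1817 of 13657 genes in either direction. The median was -0.77, at -1.10 against wild type 1 and -0.75 against wild types 2 and 3. Their summed level was 233, 252 and 531 CPM in Min mucosa, against 608, 533 and 468 CPM in wild-type mucosa, so Min 3 lay within the wild-type range. Lymphocyte markers differed between the same libraries: the summed level of 15 T cell genes was 107, 109 and 285 CPM in Min mucosa, against 215, 251 and 152 CPM in wild-type mucosa, with Min 3 highest. Their median change was -0.36 (-0.67 against wild type 1), and that of 10 B and plasma cell genes was -1.25 (-2.38 against wild type 1 and 0.21 against wild types 2 and 3). Neither list held a called gene by edgeR (0 T cell genes and 4 B cell genes lower, and 0 higher in both, at an unadjusted p under 0.05) or a gene at 0 in all 6 libraries. The part of lymphocyte content in the interferon result was not tested.

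Rtp4, a chaperone of receptors that interferon induces, was at 1.01, 2.74 and 4.02 CPM in Min mucosa, against 13.3, 9.76 and 10.2 CPM in wild-type mucosa (-2.14 ± 0.52, 4.42-fold lower, adjusted p = 0.0495). Apol9a, an apolipoprotein L induced by interferon in the mouse, was at 1.76, 0.548 and 1.40 CPM in Min mucosa, against 6.19, 25.8 and 13.05 CPM in wild-type mucosa (-3.59 ± 0.85, adjusted p = 0.0420), and a close paralogue may share its reads. Cmpk2, a mitochondrial nucleotide kinase induced by interferon, was at 15.1, 14.8 and 16.3 CPM in Min mucosa, against 32.7, 36.2 and 44.8 CPM in wild-type mucosa (-1.28 ± 0.30, adjusted p = 0.0416), and was named after its values were seen. All 3 genes were apart between the groups, wild type 1 included, with differences of -2.39, -2.17 and -1.08 against it.

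The uncalled members Isg15, Xaf1 and Oasl2 had changes of -1.72 ± 0.57, -1.55 ± 0.41 and -1.40 ± 0.44, with adjusted p of 0.163, 0.0758 and 0.134. Trim14, an adaptor of antiviral signalling outside the list, rose by 0.76 ± 0.18 (adjusted p = 0.0420).

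Paneth cell genes gave 1 fall among 13 tested, against 0.271% of all genes, no rise and 12 not called. Of their changes 11 were negative, against 51.7% positive over all genes. Their median was -0.69 (-0.85 against wild type 1 and -0.69 against wild types 2 and 3). Defa26, an alpha-defensin whose near-identical paralogues can share its reads, was at 11.7, 16.8 and 7.52 CPM in Min mucosa, against 29.4, 34.4 and 45.9 CPM in wild-type mucosa (-1.57 ± 0.34, 2.97-fold lower, adjusted p = 0.0291). Itln1, the lectin intelectin, just missed the threshold with 489, 763 and 532 CPM in Min mucosa, against 1205, 1587 and 1769 CPM in wild-type mucosa (-1.35 ± 0.33, adjusted p = 0.0514). The summed level of the list was 4115 to 6624 CPM in Min mucosa and 7171 to 8988 CPM in wild-type mucosa, without overlap.

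Fat cell markers had lower values in Min mucosa. Of 10 tested none was called by edgeR and 9 were negative, against 51.7% positive over all genes. At an unadjusted p under 0.05 were 6 lower and 1 higher, and the median was -3.002 (-1.67 against wild type 1). Adipoq, the adipocyte hormone adiponectin, was at 1.13, 0 and 0.175 CPM in Min mucosa, against 6.49, 11.0 and 5.10 CPM in wild-type mucosa (adjusted p = 0.255), and Retn, the hormone resistin, was at 0 in all 3 Min libraries. Car3, a carbonic anhydrase abundant in fat, was at 4.02, 0.137 and 0.350 CPM in Min mucosa, against 31.7, 34.7 and 17.0 CPM in wild-type mucosa (adjusted p = 0.188), and Cyp2e1 was likewise low in every Min library. The most abundant members of the list, Cidec and Fabp4, had changes of -0.96 ± 0.46 and -1.05 ± 0.65 (adjusted p of 0.363 and 0.505). The summed level of the list was 27.8 to 88.4 CPM in Min mucosa and 117 to 201 CPM in wild-type mucosa, without overlap, and the part of attached fat in the Cyp2e1 result was not tested.

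Wnt target genes, which rise where Apc is lost, did not pass the test: of 24 none was called by edgeR, with 3 higher and 0 lower at an unadjusted p under 0.05. Their median was 0.35 (0.20 against wild type 1), and 22 were positive, against 51.7% of all genes tested. Ephb2, a receptor of crypt cells, had a change of 0.34 ± 0.22 (adjusted p = 0.522) and Ccnd1, cyclin D1, of -0.35 ± 0.28 (adjusted p = 0.639). Of 16 stem cell genes none was called, with 3 higher and 0 lower at an unadjusted p under 0.05, a median of 0.23, and values of -0.42 ± 0.24 for the crypt marker Olfm4 (adjusted p = 0.467) and 0.31 ± 0.17 for Slc12a2 (adjusted p = 0.438). The 22 cell cycle genes had a median of -0.04 and the 14 genes of the destruction complex one of 0.08, with none called in either. Wnt4, a Wnt ligand outside the list, fell by 1.76 ± 0.41 (adjusted p = 0.0416), and E2f3, a transcription factor of the cell cycle, fell by 0.79 ± 0.19 (adjusted p = 0.0428), both named after their values were seen.

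Single libraries also differed in their immune cells. Ms4a1, the B cell antigen CD20, was at 0.629, 0.411 and 1.75 CPM in Min mucosa, against 22.2, 0.160 and 0 CPM in wild-type mucosa, high in wild type 1 alone. Mcpt1, a protease of mucosal mast cells, was at 0.251, 0.548 and 48.1 CPM in Min mucosa, against 4.22, 4.80 and 2.27 CPM in wild-type mucosa, high in Min 3 alone. Neither was called (adjusted p of 0.242 and 0.497), and goblet cell genes had a median of 0.42 with none of 11 called, Muc2 at 0.51 ± 0.37 (adjusted p = 0.586) and Fcgbp at 0.42 ± 0.33 (adjusted p = 0.632). Of the 44 gene lists compared, 36 held no called gene.

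Whether the same genes differ between Min and wild-type mucosa in other backgrounds was asked with libraries that the B6 comparison does not share. The mean Min effect of C5F1, C5 and B6xPWD gave 0 called genes by edgeR (0% of genes tested, smallest adjusted p 0.0755), 1083 at an unadjusted p under 0.05 and 4 called by DESeq2. Gut position was mixed within the C5 and B6xPWD groups. Gata4 spanned 2.20 to 74.0 CPM in C5 Min and 0.441 to 71.1 CPM in C5 wild-type mucosa. In B6xPWD it spanned 0.614 to 43.5 CPM in Min and 0.879 to 35.6 CPM in wild-type mucosa. A count of 0 in such groups does not show that no gene differs. Of the 34 genes higher in B6 Min, 26 were positive in C5F1, 19 in C5 and 18 in B6xPWD, with median changes of 0.33, 0.07 and 0.02, against 1.68 in B6. Among all genes 46.5% were positive in C5F1, 49.5% in C5 and 50.9% in B6xPWD.

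Of the 37 genes lower in B6 Min, 5 were negative in C5F1, 21 in C5 and 15 in B6xPWD, with medians of 0.43, -0.07 and 0.03, against -1.67 in B6. The gut position markers of C5F1 ran the other way from those of B6: Gata4 was at 38.0 to 58.9 CPM in C5F1 Min mucosa, against 6.10 to 13.3 CPM in C5F1 wild-type mucosa, and Fabp6 at 789 to 1051 CPM, against 2309 to 4185 CPM. Fabp1 had a change of 3.48 in C5F1, against -6.04 in B6, and Plb1 had 2.38, against -7.50. The hypoxia list had medians of 0.05 in C5F1, 0.06 in C5 and -0.17 in B6xPWD, against 0.89 in B6, and the interferon list had 0.13, 0.19 and 0.02, against -0.77 in B6. The fat list was negative in all 4 backgrounds, with medians of -4.13 in C5F1, -4.89 in C5 and -1.59 in B6xPWD, against -3.002 in B6. Cyp2e1 had changes of -2.36 in C5F1, -4.12 in C5 and 0.39 in B6xPWD, against -4.75 in B6. In the same order, the matrix remodelling list had medians of 0.52, 0.10 and 0.80, against 0.67 in B6. The fibroblast list had 0.25, 0.12 and 0.52, against 0.62, and the Paneth cell list -0.10, 0.12 and 0.23, against -0.69. Alas2 had changes of 1.46, 1.46 and -0.11, against 3.46 in B6.

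**Figure D5:**
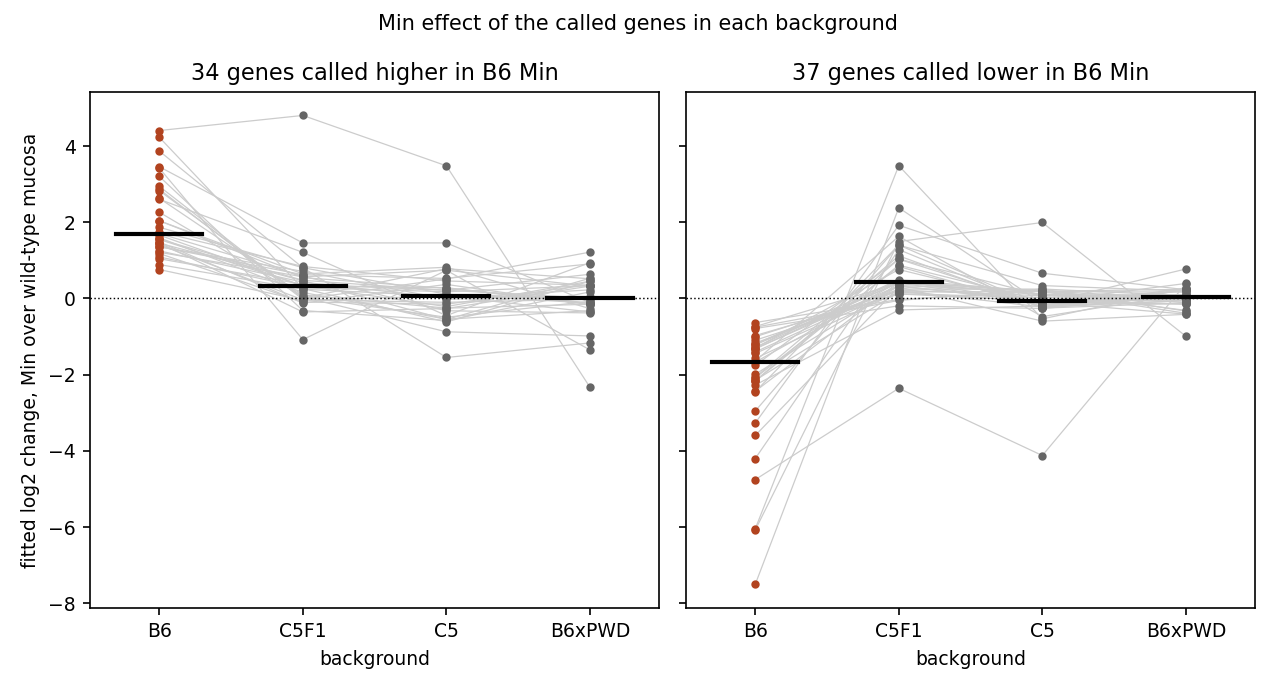
Fitted log2 change of Min over wild-type mucosa (vertical axis) in B6 (red) and in C5F1, C5 and B6xPWD (grey) for the genes called higher (left panel, 34) and lower (right panel, 37) in B6 Min, with lines joining a gene and bars at the medians. The medians are 1.68 and -1.67 in B6, which chose the genes, and 0.33, 0.07 and 0.02 (higher) and 0.43, -0.07 and 0.03 (lower) in the other backgrounds.

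The difference between the Min effect in B6 and the mean of the other 3 backgrounds was tested directly, and 40 genes passed (0.293% of genes tested), 12 higher and 28 lower in B6. Of these, 26 were also among the 71. The 5 genes of smallest p were Sult1b1 (-1.61 ± 0.28), Gramd1b, which carries cholesterol from the plasma membrane (-1.51 ± 0.27), AI427809 (-2.37 ± 0.44), Rragd (-3.60 ± 0.67) and St6galnac2, a sialyltransferase (-1.53 ± 0.29), each with an adjusted p of 0.0197. All 5 were lower in B6 Min, and Sult1b1 had changes of 0.43, 0.19 and 0.24 in C5F1, C5 and B6xPWD. Among the hypoxia and glycolysis genes called in the B6 comparison, Hif3a (3.98 ± 0.79), Aldoc (2.74 ± 0.52), Pfkl (1.74 ± 0.34) and Bnip3 (2.44 ± 0.53) passed. The B6 libraries that chose these genes are part of this test too, so it is not an independent check of them. Slc16a3 (1.81 ± 0.54), Fam162a (1.45 ± 0.39), Ddit4 (1.39 ± 0.34), Pdp1 (1.14 ± 0.30) and Pdk1 (0.91 ± 0.24) did not, with adjusted p from 0.0602 to 0.113, nor did P4ha1 (0.67 ± 0.34, adjusted p = 0.371), whose changes were 0.62, 0.53 and 0.91 in C5F1, C5 and B6xPWD. With the position covariate 3 genes passed this test, all 3 higher in B6 and 2 of them among the 40. None of the 28 lower genes passed it, the 5 genes of smallest p included.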

How the data were processed

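The authors deposited a single table of raw counts by gene symbol; reads were aligned with BWA and counted with HTSeq on mm10, per the submitters' processing notes, and versions, annotation and strand setting are not given in the sources used here. Libraries were single-end and depleted of ribosomal RNA, per the labels' protocols. HTSeq summary categories (45.6 to 53.1% of the 6 totals) were left out, and 22550 symbols matched RefSeq GRCm38.p6 directly, 1352 by synonym and 160 not at all.

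All 39 tissue libraries (13 groups of 3) were fitted with edgeR 4.0.16 in R 4.3.3: filterByExpr (minimum count 10), TMM, and the quasi-likelihood F-test with 1 mean per group. P-values were adjusted over 13657 genes (Benjamini-Hochberg), and those under 0.05 were called. CPM are TMM-normalised, log2 CPM carry a prior count of 2, and changes carry their SE. Counting intervals leave out all but counting error, and without molecular identifiers reads are not independent molecules. With 3 libraries a side, the smallest p of an exact permutation test is 0.1, so none was run. Within each B6 mucosa group no pair of libraries was a copy (6 pairs, chi-square per degree of freedom of at least 12.5), and the fit was tested on simulated data.

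Members, the 44 gene lists and rules were chosen with earlier results of these data known. Named are the 10 largest rises and falls among called genes with at least 5 CPM on the higher side, Apc, Fabp6, Gata4, members of the lists described (up to 4 called, or else the 2 most abundant) and the 5 interaction genes of smallest p; all other names were chosen after their values were seen. DESeq2 1.42.0, other filters and scalings, a replicate block, a position covariate and leaving out libraries were alternatives.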

Additional observations from a re-analysis of the deposited data

Results flagged for a closer look

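The Min effect differed between B6 and the mean of C5F1, C5 and B6xPWD for 40 genes by the test of the difference itself. The 5 genes of smallest p had log2 differences of -1.61 (Sult1b1), -1.51 (Gramd1b), -2.37 (AI427809), -3.60 (Rragd) and -1.53 (St6galnac2), all negative. Gut position markers differed between the groups of B6 in 1 direction and between those of C5F1 in the other, and 3 genes passed with a position covariate. These 3 were all higher in B6, so none of the 5 genes named here passed with it. No test of single outlying libraries was made, since each group has 3.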

How the results depend on the processing

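The B6 comparison called 71 genes with RLE size factors too (71 of them shared), 73 without a filter on low counts, 75 without Rn45s, and 82 with a replicate block in all tissue libraries. It called 3 with only the compared libraries, 26 with the replicate block in those alone, 15 with the position covariate, 186 with DESeq2 (74 higher and 112 lower, 65 shared), and 1, not among the 71, without wild types 2 and 3, an alternative chosen after seeing the data. Leaving out 1 library gave 0 to 218. No gene was called in all 6 of these fits. The direction was the same without wild types 2 and 3 for 34 of 34 higher genes (median 1.67) and 36 of 37 lower genes (median -0.81). The Min libraries and wild type 1 had also helped to choose these genes, so this is not an independent check.

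The test of the difference between backgrounds called 10 with only the compared libraries, 3 with the position covariate, 207 with DESeq2, 86 with the replicate block, 14 with the block in the compared libraries, 1 without wild types 2 and 3, and 0 to 287 when 1 library was left out. The mean effect of the other backgrounds called 1 without the filter, 4 with DESeq2, and 0 to 2 when 1 library was left out. The causes were not tested. Same-numbered Min and wild-type libraries correlated at -0.01, 0.04 and 0.26, so the numbers were not taken as pairs.

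The sign turned with the position covariate for Slc10a2 (-0.35), with the replicate block for Mcpt1 (-0.056, and -0.43 in the compared libraries), and without wild types 2 and 3 for Plb1 (0.0033), Mgam (0.31), Cidec (0.33), Lct (0.68) and Rbp2 (0.24). Over single libraries left out, Mcpt1 ranged from -3.31 to 2.50, Ms4a1 from -3.95 to 2.63 and Anpep from -0.82 to 0.12. Depth (2834220 to 5831947 gene counts) and 3 libraries a side limit the precision of genes at few counts. Those totals include Rn45s, at 16.4 to 61.0% of them and most in wild type 3, so the depth left for other genes differed more.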
